A study of Mus musculus and Ochotona curzoniae and Rattus norvegicus with 18 samples.

Results

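The fibroblast growth factor (FGF) ligands and receptors compared here were 9 genes, the ligands FGF1, FGF2, FGF7, FGF10 and FGF18 and the receptors FGFR1, FGFR2, FGFR3 and FGFRL1. They were chosen by symbol, as the first column of the pika tables and the mouse Ensembl gene with the same symbol. All 9 were among the 14418 genes whose symbol was found once in each table. RNA had been sequenced from cultured fibroblasts, labelled as of the epidermis, of the Tibetan pika, a high-altitude lagomorph, and of the mouse strain C57BL/6J, with 3 libraries each. The cells of both species were grown in medium with 10% serum under 5% CO2 and lysed at 90% confluency, and no genetic change or drug is given for either. Per its design text, the series set out to compare core clock gene expression between species and to map the binding of Epas1, a hypoxia-inducible transcription factor. Rat and rabbit fibroblast libraries, and the 6 ChIP-seq samples, were not analysed here.

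FGFs are secreted proteins that bind receptor tyrosine kinases together with heparan sulfate, a sugar chain on cell-surface and matrix proteoglycans. The bound receptor phosphorylates the adaptor FRS2 and switches on the RAS and ERK pathway, which in turn induces feedback inhibitors such as the Sprouty proteins and the phosphatase DUSP6. In skin, fibroblasts secrete FGF7 and FGF10, which act on the FGFR2 splice form of the epithelium, whereas the fibroblasts themselves mostly use FGFR1.

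Levels are given as rescaled FPKM, that is, fragments per length of gene model and library total, with the joined genes of each library set to a sum of 1000000. Log2 fold changes compare pika with mouse as log2(rescaled FPKM + 1), which makes differences of low genes look smaller than they are. Errors of levels are SDs over 3 libraries and errors of fold changes are standard errors (SE). A gene was called higher or lower in pika at an adjusted p under 0.05 (limma, Benjamini-Hochberg over all 10348 tested genes) and an absolute log2 fold change of at least 1.

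The library totals were between 7703576 and 8481030 reads in pika and between 3663102 and 5758950 in mouse. The labels do not give the animals or cultures behind the libraries, so the p-values cover the spread among libraries alone, and that spread may be technical. Species, annotation and cell line cannot be told apart in this design, and in bulk RNA fewer cells of a type and less RNA per cell cannot be told apart. Of all tested genes, 52.2% were called, 28.7% higher and 23.5% lower, so a call was the more common outcome for any gene. The mouse gene models of the tested genes were longer than the pika models by a median factor of 2.26.

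Pika fibroblasts held far less FGF7 and FGF2 RNA and more FGFR3 and FGF10 RNA than mouse fibroblasts. Of the 9 genes, 3 were called higher in pika (FGF1, FGF10 and FGFR3), 4 lower (FGF2, FGF7, FGF18 and FGFR1), and 2 were not called (FGFR2 and FGFRL1). All 9 passed the filter on low values, which needs a mean of 1 deposited FPKM in either species. FGF1 and FGFR3 passed it through pika alone and FGF18 through mouse alone, which favours a call. The libraries of the species did not overlap for 8 of the 9 genes, FGFRL1 being the exception. Over all tested genes 89.0% had libraries that did not overlap, so this count says nothing particular about the FGF genes. The median log2 fold change of the 9 genes was -0.94, beside 0.21 over all tested genes.

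**Figure D1:**
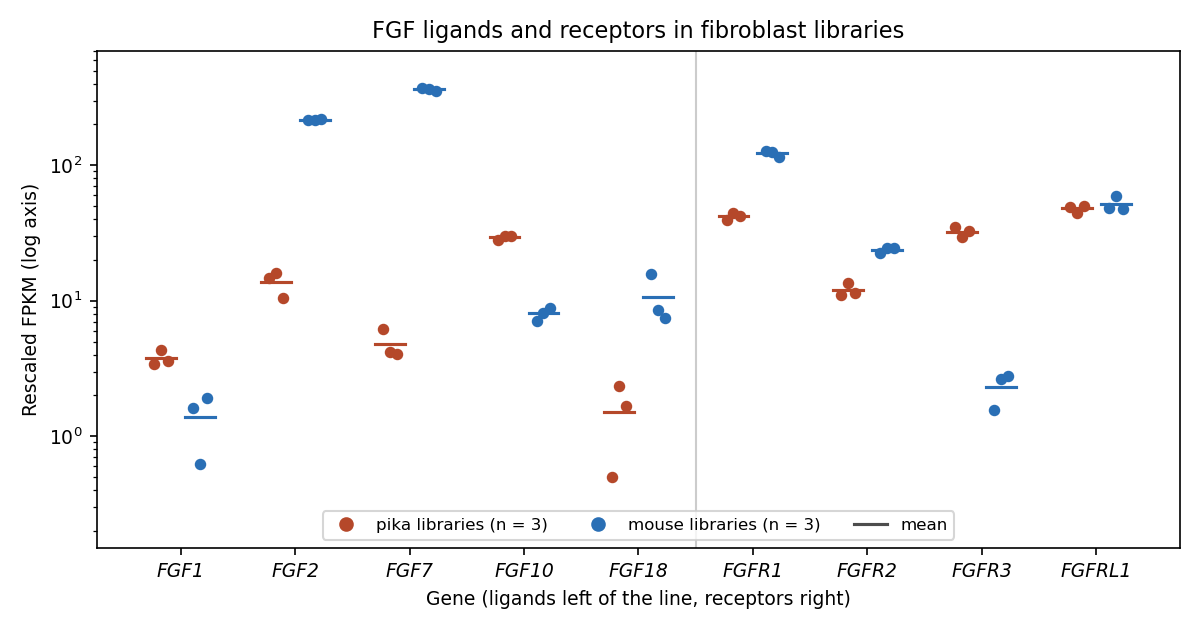
Rescaled FPKM (log axis) of the 5 ligands and 4 receptors in each of 3 pika and 3 mouse libraries, with points for libraries and bars for means. FGF7 falls from 364.9 in mouse to 4.80 in pika and FGFR3 rises from 2.33 to 32.4, while the points of FGFRL1 overlap.

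FGF7, also called keratinocyte growth factor, is a mesenchymal ligand that signals to epithelium. Its level was 6.23, 4.15 and 4.03 in the pika libraries and 373.1, 365.5 and 356.1 in the mouse libraries. Every mouse library was far above every pika library, and FGF7 was the highest of the 9 genes in mouse and among the lowest in pika. The means were 4.80 ± 1.24 and 364.9 ± 8.47 (SD, n = 3), a 75.9-fold difference, with a log2 fold change of -6.00 (SE 0.13, limma adjusted p = 2.4e-10). These levels came from 113 reads in pika and 3165 in mouse over 3 libraries each.

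FGF10 is the closest relative of FGF7 and binds the same receptor form. It went the other way, with 27.9, 30.3 and 30.2 in pika and 7.09, 8.18 and 8.90 in mouse. The groups did not overlap, and the pika mean of 29.4 ± 1.38 was 3.65-fold the mouse mean of 8.06 ± 0.912 (log2 fold change 1.75, SE 0.11, limma adjusted p = 3.4e-07). It was covered by 297 reads in pika and 98 in mouse. The gene model of FGF10 was 896 bases long in pika and 4601 in mouse, and on reads not divided by gene length the log2 fold change was 0.52 and the call was lost.

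Within each library the order of the pair was opposite. The ratio of FGF10 to FGF7 was 4.47, 7.29 and 7.49 in pika and 0.0190, 0.0224 and 0.0250 in mouse, with no overlap (exact permutation test, two-sided, p = 0.10, the smallest that 3 against 3 libraries allow). This ratio does not depend on how libraries are scaled.

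The 250 bases before the mouse starts of this pair are shown because the ligands are close relatives with opposite differences. Both were scanned on both strands for CACGTG, the E-box that the CLOCK and BMAL1 proteins bind, and for ACGTG or GCGTG, the core bound by hypoxia-inducible factors, which a CACGTG also holds. Matches are in capitals. The sequences are from RefSeq on GRCm38.p6, written 5′ to 3′ along the gene's strand.
Fgf7, chr2:126034408-126034657, + strand: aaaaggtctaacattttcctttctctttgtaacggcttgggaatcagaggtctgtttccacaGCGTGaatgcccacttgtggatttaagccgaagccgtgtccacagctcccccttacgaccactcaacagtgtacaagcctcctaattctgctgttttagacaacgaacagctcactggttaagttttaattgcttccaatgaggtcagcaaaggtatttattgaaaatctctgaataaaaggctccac
Fgf10, chr13:118714449-118714698, + strand: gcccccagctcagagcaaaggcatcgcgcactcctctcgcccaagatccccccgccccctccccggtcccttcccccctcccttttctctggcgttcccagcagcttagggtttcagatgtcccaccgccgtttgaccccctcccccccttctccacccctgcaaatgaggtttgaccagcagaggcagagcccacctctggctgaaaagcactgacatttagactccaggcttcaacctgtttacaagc
The Fgf7 window held 1 GCGTG and the Fgf10 window held neither motif. Of 32851 mouse promoter windows of this length, 6.02% held CACGTG and 38.6% held ACGTG or GCGTG. A match in such a window is a description of letters and not a measured site. In the mouse genome Fgf7 is at chr2:126034658-126091185 and Fgf10 at chr13:118714699-118792573, both on the + strand.

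FGF2, or basic FGF, is a broad mitogen of fibroblasts and endothelial cells. It was at 14.7, 16.1 and 10.6 in pika and at 216.3, 216.0 and 220.0 in mouse. The mouse libraries lay close together and all above the pika libraries. The means of 13.8 ± 2.87 and 217.5 ± 2.22 differed 15.8-fold (log2 fold change -3.91, SE 0.13, limma adjusted p = 2.9e-09), on 134 and 1967 reads. The mouse gene lies at chr3:37348477-37410106 on the + strand, and its end overlaps Nudt6 on the opposite strand. NUDT6 was also called lower in pika, at 22.7 ± 0.825 against 161.6 ± 16.9 (log2 fold change -2.78, SE 0.08, adjusted p = 1.4e-09 by limma). The sources used here do not give whether reads were counted by strand, so reads from the shared stretch cannot be assigned to either gene. The ratio of FGF2 to NUDT6 was 0.623, 0.736 and 0.467 in pika and 1.21, 1.35 and 1.52 in mouse.

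FGF18, a ligand known from cartilage, bone and the hair cycle, was low in both species. It was at 0.496, 2.35 and 1.67 in pika and at 15.7, 8.54 and 7.46 in mouse, without overlap. The means of 1.5 ± 0.938 and 10.6 ± 4.48 differed 7.02-fold (log2 fold change -2.22, SE 0.34, limma adjusted p = 0.00017). The depth was small, with 18 reads in pika and 35 in mouse. The SE, which pools the spread of both species, was the largest of the 9 genes.

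FGF1, or acidic FGF, binds all of the signalling receptors. It was at 3.38, 4.36 and 3.61 in pika and at 1.60, 0.623 and 1.91 in mouse. The groups did not overlap, and the means were 3.79 ± 0.511 and 1.38 ± 0.671 (log2 fold change 1.05, SE 0.24, limma adjusted p = 0.0022). Only 30 reads in pika and 9 in mouse carry this difference, and it lies just past the fold threshold. The call was lost without pika library 2 (0.96), without mouse library 2 (0.79), with median-of-ratios scaling (0.93) and on reads not divided by gene length (0.43).

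FGFR1 is the main FGF receptor of mesenchymal cells. It was at 39.7, 44.3 and 42.3 in pika and at 126.9, 126.1 and 115.7 in mouse. All mouse libraries were above all pika libraries, with means of 42.1 ± 2.28 and 122.9 ± 6.24, a 2.92-fold difference (log2 fold change -1.52, SE 0.06, limma adjusted p = 1.5e-08). With 1270 reads in pika and 3236 in mouse it was the most deeply covered of the 9 genes over both species. The mouse gene is at chr8:25518759-25575718. Its gene model was 2680 bases long in pika and 9875 in mouse, and without the length the log2 fold change was -2.36. With the deposited FPKM unscaled it was -0.24, and the call was lost.

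FGFR2, the receptor of FGF7 and FGF10 in its epithelial splice form, was at 11.0, 13.5 and 11.3 in pika and at 22.5, 24.7 and 24.4 in mouse. The groups did not overlap and the mouse mean of 23.9 ± 1.21 was 2.00-fold the pika mean of 12.0 ± 1.33. The log2 fold change of -0.94 (SE 0.11, limma adjusted p = 2.7e-05) passed the p but not the fold threshold, so the gene was not called. It was called lower with median-of-ratios scaling (-1.11), on reads not divided by length (-1.81) and without pika library 2 (-1.03). With the deposited FPKM unscaled the direction turned, to 0.25, and the gene was not called. Gene-level values do not separate the epithelial and mesenchymal splice forms of FGFR1, FGFR2 or FGFR3.

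FGFR3, known as a brake on bone growth and also present in epidermal keratinocytes, had the largest higher value of the 9 genes. It was at 34.8, 29.4 and 33.0 in pika and at 1.56, 2.63 and 2.78 in mouse. Every pika library was above every mouse library by a wide margin. The means of 32.4 ± 2.78 and 2.33 ± 0.665 differed 13.9-fold (log2 fold change 3.35, SE 0.17, limma adjusted p = 6.1e-08). The pika level rested on 961 reads and the mouse level on 43.

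The mouse table also held a row named Fgfr3-ps, a pseudogene of this receptor, at 24.6, 16.6 and 20.4, with 64 reads over 3 libraries. Both mouse rows together held 107 reads. With the reads of the pseudogene counted with Fgfr3, an alternative chosen after seeing the data, the log2 fold change was 2.34 and FGFR3 was still called higher.

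FGFRL1 carries the extracellular part of an FGF receptor but no kinase domain. It was at 49.5, 44.3 and 50.2 in pika and at 48.2, 59.3 and 47.7 in mouse, and the groups overlapped. The means were 48.0 ± 3.23 and 51.8 ± 6.55, and the log2 fold change of -0.10 had a 95% interval from -0.32 to 0.12 (limma adjusted p = 0.34). With the deposited FPKM unscaled the log2 fold change was 1.11 and called higher. On reads not divided by gene length it was 0.97, but the reads and length recovered for the mouse gene may be too small by a shared whole factor, which would raise this value. It was the highest of the 9 genes in pika.

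The corresponding windows of the mouse starts of Fgfr3 and Fgfrl1 are shown because they held the most motif matches of the members' windows. RefSeq gives 2 starts for Fgfr3, and the window shown is that of the upstream start.
Fgfr3, chr5:33721474-33721723, + strand: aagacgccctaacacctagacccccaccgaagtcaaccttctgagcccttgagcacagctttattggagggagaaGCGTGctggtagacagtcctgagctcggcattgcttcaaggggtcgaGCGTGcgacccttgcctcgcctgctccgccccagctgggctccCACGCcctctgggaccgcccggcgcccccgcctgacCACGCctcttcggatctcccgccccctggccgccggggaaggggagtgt
Fgfrl1, chr5:108693979-108694228, + strand: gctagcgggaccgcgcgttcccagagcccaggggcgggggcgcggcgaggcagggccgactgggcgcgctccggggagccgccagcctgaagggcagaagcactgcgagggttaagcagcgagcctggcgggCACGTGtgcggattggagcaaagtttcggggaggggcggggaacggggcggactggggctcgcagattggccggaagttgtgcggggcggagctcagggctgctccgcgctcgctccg
This Fgfr3 window held 4 matches to GCGTG over both strands and no CACGTG, and the window of the other start, at chr5:33722056-33722305, held neither motif. In the Fgfrl1 window 1 CACGTG was found, a palindrome that gives the 2 ACGTG matches, 1 on each strand. RefSeq windows were scanned for 7 of the 9 genes. Those of Fgf18 and Fgfr2 held neither motif, and that of Fgf2 held 1 GCGTG. The mouse genes are at chr5:33721724-33737068 for Fgfr3 and at chr5:108694229-108706950 for Fgfrl1.

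The way values were scaled moved the whole comparison. Without rescaling, the median log2 fold change of all tested genes was 1.29, against 0.21 with the shared-gene total, 0.04 with median-of-ratios scaling and 0.04 on reads not divided by gene length. The share of calls that were higher in pika was 55.0% with the shared-gene total, 48.9% with median-of-ratios scaling, 84.5% without rescaling and 48.4% without gene length. Without rescaling 6029 of all 10348 tested genes were called higher and 1106 lower. List counts given below for that setting are to be read beside these. Relative to the median of all genes, the median of the 9 FGF genes lay at -1.16, -1.15, -1.04 and -1.22 in the same order. FGF2, FGF7 and FGFR3 kept their calls under each of these settings. FGF18 (-0.82) and FGFR1 (-0.24) lost theirs without rescaling, where both values still lay below the median of all genes.

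**Figure D2:**
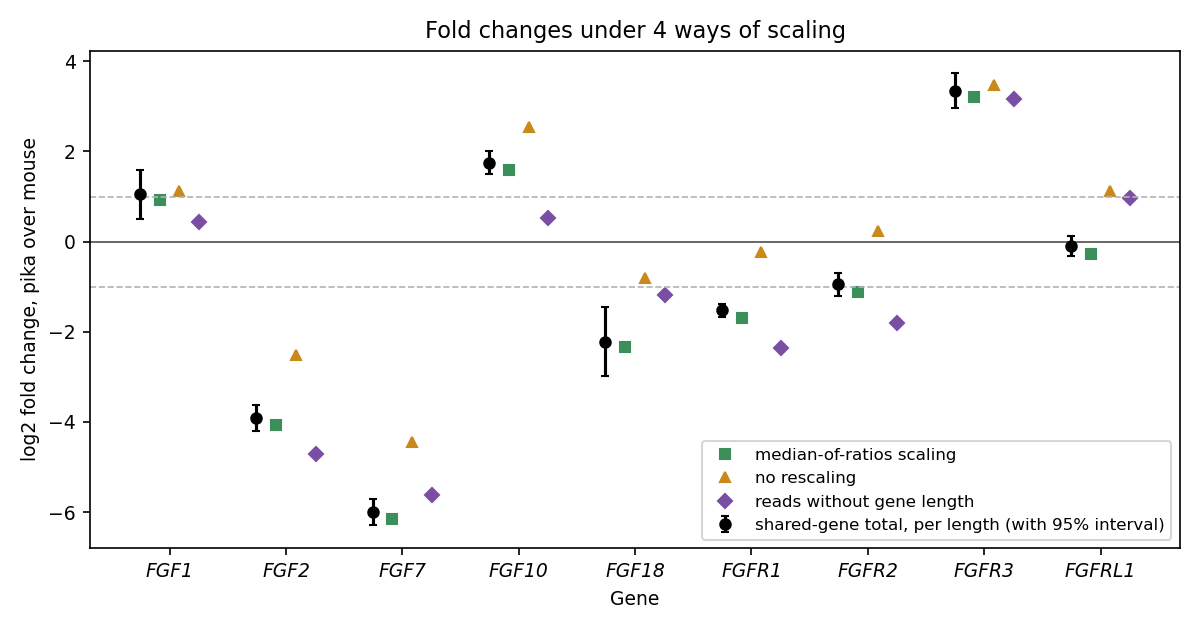
Log2 fold change, pika over mouse, of each of the 9 genes with the shared-gene total (black, with 95% interval) and under 3 other ways of scaling, with dashed lines at the fold threshold of 1. FGF2, FGF7 and FGFR3 lie beyond the threshold on the same side under each way, whereas FGFR2 and FGFRL1 change sign.

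In pika the order of mean levels was FGFRL1, FGFR1, FGFR3, FGF10, FGF2, FGFR2, FGF7, FGF1 and FGF18. The ranges of FGFR3 and FGF10, of FGF2 and FGFR2, and of FGF7 and FGF1 overlapped, so these neighbours were not separated by their libraries. In mouse the order was FGF7, FGF2, FGFR1, FGFRL1, FGFR2, FGF18, FGF10, FGFR3 and FGF1, with overlap between FGF18 and FGF10 and between FGFR3 and FGF1. Receptors thus held the first places in pika, and the ligands FGF7 and FGF2 held them in mouse.

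Shares within a library do not depend on the scaling of libraries. Of the summed FPKM of the signalling receptors FGFR1 to FGFR4, FGFR1 held 46.1%, 50.3% and 48.7% in pika and 84.1%, 81.8% and 81.0% in mouse. The means were 48.4% ± 2.11 and 82.3% ± 1.62 (SD, n = 3), a difference of -33.9 percentage points (exact permutation test, two-sided, p = 0.10, the smallest possible). FGFR3 held 37.2% ± 3.58 in pika and 1.56% ± 0.473 in mouse. FGFR2 held 13.7% ± 1.38 and 16.0% ± 1.10, and these groups overlapped. FGFR4, the receptor of liver and muscle, held under 1.1% in each library, with a highest value of 1.02%.

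Among the 5 ligands, FGF2 held 25.7% ± 3.97 of the summed FPKM in pika and 36.1% ± 0.885 in mouse, a difference of -10.4 percentage points (exact permutation test, two-sided, p = 0.10, the smallest possible). FGF7 held 9.05% ± 2.45 and 60.6% ± 0.587. FGF10 held 55.4% ± 4.26 and 1.34% ± 0.173. Thus FGF10 led in pika and FGF7 in mouse, and neither the FGF2, the FGF7 nor the FGF10 shares overlapped between species.

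Receptor and ligand levels were also set against each other. The ratio of FGF2 to FGFR1 was 0.369, 0.364 and 0.249 in pika and 1.71, 1.71 and 1.9 in mouse, so this ligand stood below its receptor in each pika library and above it in each mouse library. The ratio of FGFR1 to the kinase-less FGFRL1 was 0.802, 0.999 and 0.843 in pika and 2.63, 2.13 and 2.42 in mouse. FPKM ratios between genes rest on the gene models of each species.

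**Figure D3:**
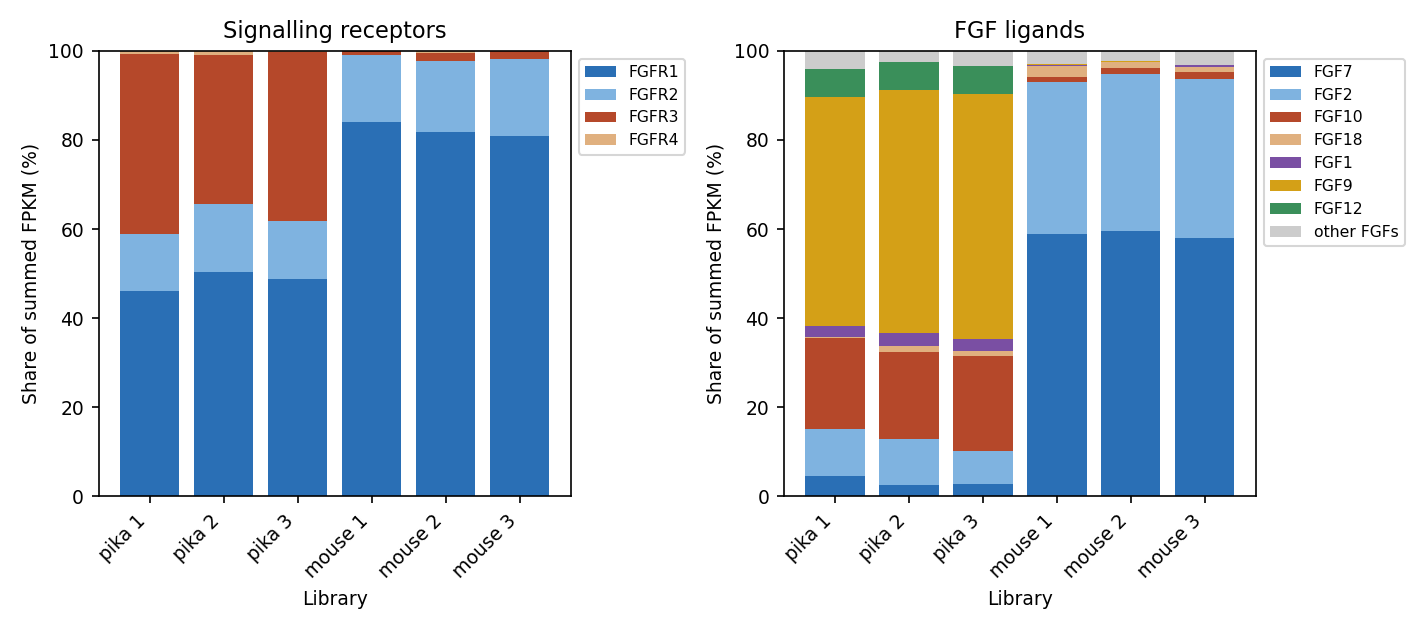
Share (%) of the summed FPKM of FGFR1 to FGFR4 (left) and of all FGF ligand genes found in both tables (right) in each of the 6 libraries, as stacked bars. FGFR1 holds 82.3% of receptor FPKM in mouse and 48.4% in pika, and FGF9 holds 53.7% of ligand FPKM in pika.

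Of 16 other FGF ligand genes found in both tables, 3 were high enough to test and all were called, beside 52.2% of all tested genes. Each of the 3 passed the filter through 1 species alone, which favours a call, so this count says little about the FGF ligands. FGF9, a ligand known from gonad, lung and joint development, was at 70.4, 85.6 and 78.3 in pika and at 1.31, 0.679 and 0.778 in mouse. Each pika library was far above each mouse library (log2 fold change 5.37, SE 0.15, limma adjusted p = 1.2e-09), on 1788 and 11 reads. Of all joined FGF ligand FPKM, FGF9 held 53.7% ± 2.10 in pika and 0.148% ± 0.0516 in mouse.

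FGF12, which belongs to the FGF homologous factors that stay inside the cell, was called higher, at 8.78, 9.64 and 8.90 in pika and listed at 0 in the mouse libraries. FGF5, a ligand that ends the growth phase of the hair follicle, was called lower, with 0.0736 ± 0.127 in pika, where 1 read was found, and 6.24 ± 1.45 in mouse (log2 fold change -2.74, SE 0.21, limma adjusted p = 9.7e-07). FGFR4 and the klotho co-receptors KL and KLB were too low to test. KLB had 0.650 ± 0.142 in pika against 0.256 ± 0.0577 in mouse, and FGFR4 at 0.579 ± 0.298 and 0.273 ± 0.472.

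Heparan sulfate proteoglycans, the co-receptors of FGFs, were mostly lower or not called. Of 12 tested, 6 were called lower and 1 higher and 5 had no call, with a median log2 fold change of -0.99. That is 58.3% called, beside 52.2% of all tested genes. Without rescaling 3 were higher and 2 lower around a median of 0.30, below that of all genes. SDC3 (syndecan 3) had 10.1 ± 0.510 in pika against 150.2 ± 2.58 in mouse (-3.77), GPC2 (glypican 2) at 0.257 ± 0.0908 and 14.4 ± 1.56 (-3.62), and GPC6 at 24.4 ± 1.31 and 111.7 ± 2.46 (-2.15). GPC3, a glypican of embryonic growth, was higher, at 47.3 ± 1.28 against 4.02 ± 1.32 (3.30). SDC3, GPC2 and GPC3 also kept their calls under the other 3 ways of scaling, and GPC6 lost its call without rescaling (-0.84). GPC2 passed the filter through mouse alone and GPC3 through pika alone, which favours a call.

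Among 14 tested enzymes that build or trim heparan sulfate, 7 were called lower and 2 higher and 5 had no call, with a median of -0.64, and without rescaling 1 was lower and 5 higher around 0.58. The share called was 64.3%, beside 52.2% of all tested genes. SULF1, which removes sulfates that FGF binding needs, had 7.52 ± 0.647 in pika against 78.9 ± 1.12 in mouse (-3.23). The sulfotransferases HS6ST2 (-2.18) and NDST1 (-1.87) were called lower, but not without rescaling (-0.87 and -0.57). HPSE, the heparanase that cuts the chains, was higher, at 27.0 ± 1.18 against 2.40 ± 0.781 (3.07). SULF1 and HPSE kept their calls under the other 3 ways of scaling. HPSE passed the filter through pika alone, which favours a call.

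Of 9 tested genes for FGF carriers and receptor partner proteins, 3 were called lower and 1 higher and 5 had no call, with a median of -0.84 that was 0.42 without rescaling. The share called was 44.4%, below the 52.2% of all tested genes. FLRT2 and FLRT3 are relatives that bind FGF receptors at the membrane, and they went opposite ways. FLRT2 had 0.614 ± 0.228 in pika against 46.2 ± 0.894 in mouse (-4.88), and FLRT3 at 60.7 ± 3.49 and 9.61 ± 2.18 (2.56). L1CAM, an adhesion molecule that can bind FGF receptors, was at 0.573 ± 0.203 and 16.9 ± 1.27 (-3.52). The carrier FGFBP3 was at 0.594 ± 0.409 and 11.2 ± 3.31 (-2.92). All of these 4 calls were also made under the other 3 ways of scaling. FLRT2, L1CAM and FGFBP3 passed the filter through mouse alone, which favours a call under each of them.

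The adaptors and signal proteins downstream of the receptors were mostly not called, except without rescaling. In that setting 18 were higher around a median of 1.48, beside 6029 of all 10348 tested genes around a median of 1.29. Of 26 tested, 19 had no call, 6 were higher and 1 was lower, that is 26.9% called beside 52.2% of all tested genes, with a median of 0.25. HRAS (1.43) and the exchange factors SOS1 (1.39) and SOS2 (1.29) were higher. On reads not divided by gene length HRAS was at -0.21 and SOS1 at -0.67, and both lost their calls, while SOS2 kept its call under each way of scaling. The recovered length of SOS1 was 1011 bases in pika and 8919 in mouse. Its pika reads and length may be too small by a shared whole factor, which would lower the value of -0.67. FRS2, the adaptor that FGF receptors phosphorylate, was the member called lower, at 45.5 ± 2.19 in pika and 98.4 ± 6.88 in mouse (-1.09), but not without rescaling (0.18). FRS2 was named after its value was seen.

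The last list held feedback and target genes of FGF signalling. Of 20 tested, 10 were called lower and 4 higher and 6 had no call, with a median of -0.78, and without rescaling 9 were lower and 9 higher around 0.46. The share called was 70.0%, beside 52.2% of all tested genes. FOS, an immediate early transcription factor gene, was at 12.6 ± 0.787 in pika and 875.5 ± 10.1 in mouse (-6.01). EGR1, another immediate early gene, was at 30.2 ± 2.37 and 766.8 ± 14.3 (-4.63). The ERK phosphatase DUSP5 was at 4.49 ± 0.988 and 116.8 ± 5.01 (-4.44), and SPRED3, a RAS pathway inhibitor, at 1.19 ± 0.144 and 28.3 ± 3.20 (-3.74). These 4 were called lower under each way of scaling. SPRED3 passed the filter through mouse alone, which favours such a call.

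The feedback genes most tied to FGF signalling did not move one way. They were named after their values were seen. SPRY2, a Sprouty inhibitor, was at 12.6 ± 2.08 in pika and 139.3 ± 7.99 in mouse (-3.38), whereas SPRY1 (0.02) and SPRY4 (0.22) were not called. The ETS factors ETV1 (2.15), ETV4 (1.15) and ETV5 (1.06) were higher, as was DUSP4 (1.15). With median-of-ratios scaling ETV4 (0.98), ETV5 (0.88) and DUSP4 (0.98) lost their calls, which left 1 of 20 called higher. DUSP6 was called lower (-1.25) but was at 0.02 without rescaling and at -0.23 on reads not divided by length.

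**Figure D4:**
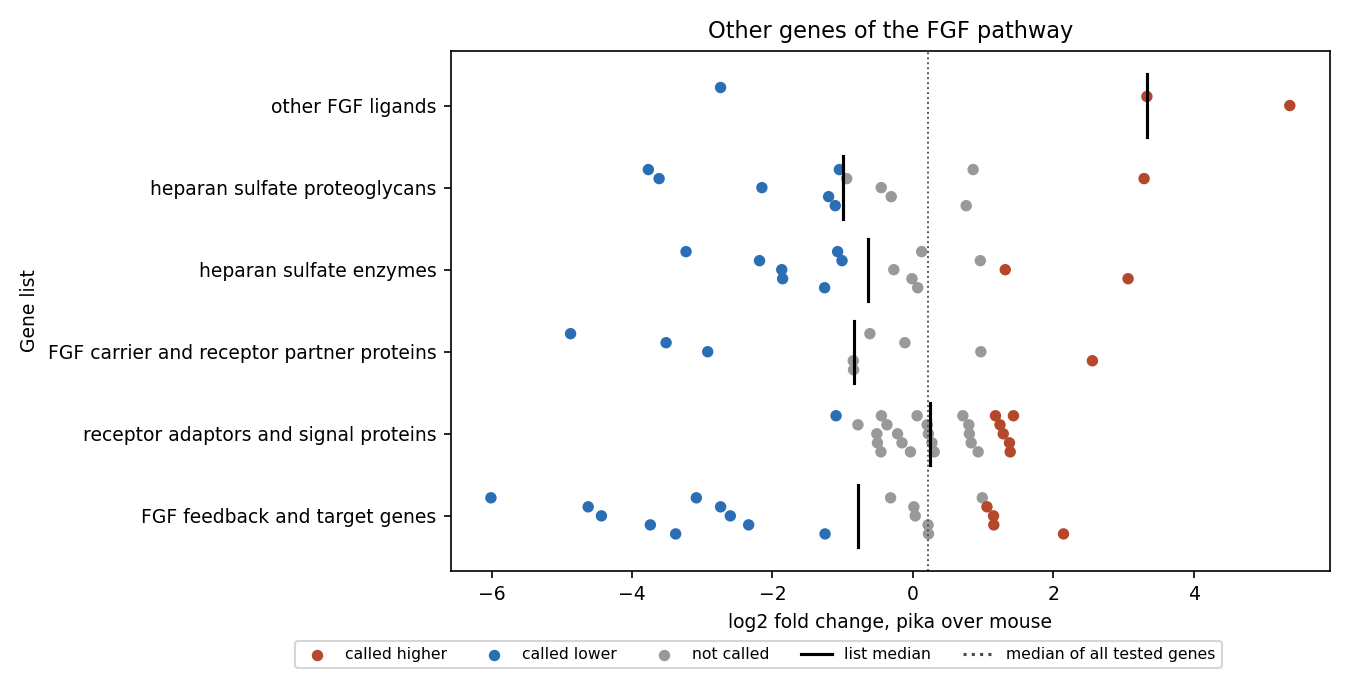
Log2 fold change, pika over mouse, of the tested genes in 6 lists of FGF pathway genes, coloured by call, with list medians (bars) and the median of all tested genes (dotted line, 0.21). The medians of proteoglycans (-0.99), heparan sulfate enzymes (-0.64), partner proteins (-0.84) and feedback genes (-0.78) lie left of the dotted line, and that of adaptors (0.25) lies near it (without rescaling, the 4 were above 0 but still below that of all genes).

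By the distance between profiles over the 6 libraries, the tested genes closest to FGFR1 were BCL9L (distance 0.18), at 44.1 ± 2.07 in pika and 125.2 ± 2.86 in mouse, and FAM102B (0.21), at 41.3 ± 1.00 and 131.5 ± 7.55. Closest to FGF7 were DKK2 (0.39), at 4.82 ± 0.822 and 389.0 ± 22.0, and TNFRSF1B (0.75), at 5.37 ± 1.15 and 275.0 ± 11.4. These distances are on the log2(rescaled FPKM + 1) scale and were computed against 10339 genes.

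Markers were measured beside these results. All 14 fibroblast markers found in both tables were tested, with 2 called higher, 4 lower and 8 not called. That is 42.9% called, beside 52.2% of all tested genes. COL3A1, a fibrillar collagen gene and the largest difference of the list, had 22.9 ± 1.44 in pika against 954.8 ± 16.4 in mouse (-5.32), and COL5A1 had 478.5 ± 15.1 against 1539 ± 37.8 (-1.68). COL1A1, VIM and FN1, named after their values were seen, were among those not called. PDGFRA, a receptor of dermal fibroblasts, had 3.47 ± 0.340 in pika against 65.1 ± 4.21 in mouse, and FAP was at 41.7 ± 0.966 and 1.23 ± 0.661. FAP passed the filter through pika alone, which favours a call. The keratinocyte list had 14 genes found in both tables, of which 5 could be tested (2 called higher and 3 lower). Each of the 5 passed the filter through 1 species alone, which favours a call. The summed level of the list was 92.1 to 104.8 in pika and 67.4 to 80.7 in mouse. Most of the pika sum was PERP (70.4 ± 7.46) and PKP1 (26.7 ± 1.14), while KRT5, KRT14, KRT15, KRT10, CDH1, EPCAM and ESRP1 were listed at 0 in the pika libraries. These genes were also near or at 0 in mouse, except KRT10 at 5.04 ± 0.561. The mouse means were 0.220 for KRT5, 0.210 for KRT14, 0.273 for KRT15, 0.0679 for CDH1, 0.152 for EPCAM and 0 for ESRP1. DSP gave 45.2 ± 2.22 of the mouse sum.

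The summed chondrocyte and adipocyte markers were at 4.62 to 5.84 in pika and 83.6 to 85.6 in mouse. Of these, 4 of 4 tested were called lower, such as SOX9 (-3.38), beside 23.5% of all tested genes. These 4 passed the filter through mouse alone, which favours such a call. Without the filter 10 were tested, with 5 called lower and 1 higher, beside 3035 lower and 3041 higher of all 13958 genes tested in that setting. ACAN, too low to test, went the other way, at 1.71 ± 0.368 in pika and 0.0988 ± 0.171 in mouse. CEBPA and PLIN1 were listed at 0 in pika and ADIPOQ at 0 in mouse. Endothelial markers summed to 0.707 to 1.75 in pika and 34.0 to 40.8 in mouse, where the 1 tested, TEK, was at 31.4 ± 3.94. CDH5, KDR and TIE1 were at 0 in pika and at means of 1.21, 1.17 and 0.906 in mouse, too low to test. Leukocyte markers summed to 14.1 to 15.2 and 36.8 to 44.6, with 2 of 3 tested called lower, beside 23.5% of all tested genes. Of the 2, CSF1R passed the filter through mouse alone, which favours such a call. CD68 rested on 18 reads in pika and 17 in mouse, and it did not keep its call under each of the other 3 ways of scaling. PTPRC, ITGAM, ADGRE1 and CD3E were at 0 in pika. In mouse CD3E was at 0 too, and PTPRC, ITGAM and ADGRE1 were at means of 0.127, 1.96 and 2.30. Melanocyte markers summed to 68.1 to 78.5 and 54.8 to 58.3, with 1 of 2 tested called higher, beside 28.7% of all tested genes. The called gene, PMEL, passed the filter through pika alone, which favours such a call. TYR and SOX10 were at 0 in mouse and at means of 0.625 and 0.0985 in pika. TYRP1 was at 0 in pika and at 0.171 in mouse. The part of these markers in the FGF differences was not tested.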

How the data were processed

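RNA-seq of cultured pika and mouse fibroblasts (3 libraries each) was analysed from the FPKM values that the authors deposited, 1 per gene and library. CASAVA 1.9, STAR 2.6.1a, featureCounts, edgeR 3.28.1 and the build GRCm38 are listed without order in the submitters' processing notes, and the pika annotation and strand setting are not given in the sources used here. Pika rows carry symbols, and 49326 of 49585 mouse identifiers were named with a RefSeq table of GRCm38.p6. The 14418 joined genes held about 87.1% of pika FPKM and 37.0% to 38.3% of mouse FPKM, and their sum was set to 1000000 in each library. FPKM divides reads by model length, so shorter models give higher values from equal reads. Genes with a mean FPKM of at least 1 in a species were tested two-sided on log2(value + 1) by limma-trend, in limma 3.58.1 under R 4.3.3, with Benjamini-Hochberg adjustment.

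Reads, lengths and totals were recovered from the FPKM steps (tolerance 2e-05 reads) and may be too small by a shared whole factor, so they serve for depth and alternatives only. Shares and ratios within libraries were compared by exact permutation tests. The scripts were tested on simulated data. Replicate pairs differed by more than sampling noise (mean chi-square per gene 1.34 to 1.53 in pika and 1.17 to 1.25 in mouse, where sampling alone gives about 1). Promoter windows are the 250 bases before RefSeq starts. Python 3.11.15 was used with scipy 1.17.1, pandas 2.3.3 and numpy 2.4.6.

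The members and lists were chosen with earlier results of these data known. All 9 members were named, and from each other list up to 4 called genes with the largest absolute fold change, or up to 2 of the highest level where fewer than 2 were called; exceptions are stated, and a gene that the rule names is not reported here. Likeness was the Euclidean distance of log2 profiles for FGFR1 and the ligand with the highest mean. Alternatives changed the pseudocount, filter, scaling, gene length, trend, replicate block and replicates used. Rat and rabbit identifiers were not matched to symbols, and these libraries and the ChIP-seq samples were not analysed here.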

Additional observations from a re-analysis of the deposited data

How the results depend on the processing

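Of 134 recomputed fold changes of single FGF genes, 121 kept their direction and side of the threshold and 7 lost their call. A further 3 gained a call in the same direction and 3 changed sign. Of those that changed sign, FGFRL1 without rescaling was also called higher. The sign changes were FGFR2 without rescaling (0.25) and FGFRL1 without rescaling (1.11) and without gene length (0.97, which too few recovered mouse reads would raise), and the cause was not tested. The number called higher fell from 3 to 1 without gene length, and the number called lower from 4 to 2 without rescaling. Leaving out each library in turn gave 2 to 3 called higher and 4 to 5 called lower, a difference in the FGFR1 share of -34.9 to -32.8 percentage points and in the FGF2 share of -11.6 to -8.12. Without gene length these differences were -33.6 and -14.7. With a mean of 5 FPKM required, FGF1 and FGF18 were not tested. Same-numbered libraries of the species did not deviate together (correlations -0.0091, 0.0483 and 0.0092), so they share only a number, and not every library correlated best with its own number. With the replicate block 3 genes were called higher and 4 lower, and no call changed. Low read numbers limit FGF1 (9 in mouse) and FGF18 (18 in pika).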

Other observations

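FGF rows that are in one table alone were not part of the comparison. In the mouse libraries Fgf15, an intestinal hormone-like FGF, had 2 reads in all and Fgfbp1, an FGF carrier, was listed at 0. Fgf2os, a long non-coding RNA on the strand opposite Fgf2, was at 3.23, 5.02 and 1.54 rescaled FPKM. In the pika libraries FGF19 and FGFBP2 were listed at 0.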
